A study of Rattus norvegicus with 12 samples.

Results

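Rat liver was compared at 4 h and at 0 h after partial hepatectomy (PH), within each of 3 surgical groups. The comparison used 6 of the 12 columns of the RNA sequencing table. Genes entered when their average over all 12 columns reached 1 RPKM. Of the 8459 that did, 145 were at least 2-fold higher and 231 at least 2-fold lower at 4 h in all 3 groups. These 376 genes, the response at 4 h that the groups shared, are described here. They were led upward by IGFBP1, TNFRSF21, ALPL and CXCL1, and downward by CYP7A1, LRTM2 and NR1I3.

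All rats were male Sprague Dawley, aged 4 to 5 months, with a duodenal catheter for continuous saline and surgery 24 h before removal of most of the liver. All operations used isoflurane, with buprenorphine, meloxicam or both against pain. Cont rats had a sham fistula. BA and BF rats had a biliary fistula that drained bile, and in 1 of these groups sodium taurocholate was infused into the duodenum from 12 h before PH. The sample descriptions put the infusion in the BF columns, while the naming of the groups in the study puts it in the BA columns. CYP7A1 at 0 h stood at 60.0, 54.9 and 387 RPKM in Cont, BA and BF. The prefixes are therefore used as names only, and values in triplets below are always in the order Cont, BA and BF. The shared response treats the 3 groups alike and does not depend on which group was infused. No rats without PH were sampled at 4 h, so PH, anaesthesia with laparotomy and the hour of the day cannot be told apart.

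In the first hours after PH, the remnant liver enters what is called the priming phase. Hepatocytes leave quiescence, cytokines such as IL-6 act through STAT3, immediate early genes are transcribed, and DNA synthesis has yet to start. In the same hours the remnant mounts an acute phase response and goes on meeting the metabolic needs of the whole animal.

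Each column is a table of RPKM, reads per kilobase of transcript scaled to sequencing depth, that combined a run on 1 rat with a run on pooled RNA of 3 rats, so 4 rats stood behind a value and no spread between rats was known. The 3 groups served as the 3 replicates of the change with time. Read depth was unknown. The BA column at 4 h stood apart: its RPKM summed to 982826, against 732108 to 785092 in the other 5, and its 10 most abundant genes took 53.2% of the sum, against 31.5% to 37.8%. ALB, serum albumin, was at 99928, 87628 and 90662 RPKM at 0 h and 81796, 303637 and 78927 RPKM at 4 h. The median log2 ratio of all tested genes was -0.19, -0.32 and -0.07. The tissue carried its label, with summed hepatocyte markers (ALB, TTR, APOB and others) between 112070.0 and 339414 RPKM in the 6 columns. GAPDH, a common reference gene, was listed at 0.08 to 0.54 RPKM and was not used as a reference. In whole liver, fewer cells of a type and less RNA per cell cannot be told apart.

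The 145 higher genes were 1.71% of those tested, and the 231 lower genes 2.73%. In single groups, 339, 390 and 434 genes were 2-fold higher and 439, 1115 and 587 were 2-fold lower. In the limma fit with the group as block, 756 genes (8.94%) rose and 2057 (24.3%) fell at an adjusted p under 0.05, and all 376 genes were among them. The p-values measure the spread of the change over the 3 groups, and since the 376 genes had to change in every group, their own p-values are given as description. When each column was rescaled, that is divided by the median over genes of its ratio to the mean of the 6 columns, the 2-fold sets became 216 higher and 143 lower, which kept all 145 and 143 of the 231, and limma called 1289 higher and 1299 lower. The excess of lower over higher genes was thus not kept under that scaling. Without the BA pair, 189 genes were 2-fold higher and 263 lower in the other 2 groups, and limma called 607 and 1219. Without the Cont pair, 410 genes were lower, and without the BF pair limma called 404 and 895. Leaving out a pair can only keep or add genes under the 2-fold rule.

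The higher genes had a median of 20.6 RPKM over the 12 columns and the lower genes 12.0, against 10.99 for all tested genes. Together the higher genes made up 0.75%, 0.78% and 0.75% of the summed RPKM at 0 h and 3.86%, 3.39% and 2.78% at 4 h. The lower genes went from 2.04%, 1.62% and 1.76% to 0.73%, 0.30% and 0.53%. The mean log2 ratio ran from 1.10 to 3.93 (median 1.76) among the higher genes and from -4.16 to -1.05 (median -1.59) among the lower. In every group, 21 genes were at least 4-fold higher and 24 at least 4-fold lower. Changes below are log2((RPKM+1)/(RPKM+1)) of 4 h to 0 h, as the mean over the 3 groups ± SD (n = 3), with the adjusted p of the limma fit.

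**Figure D1:**
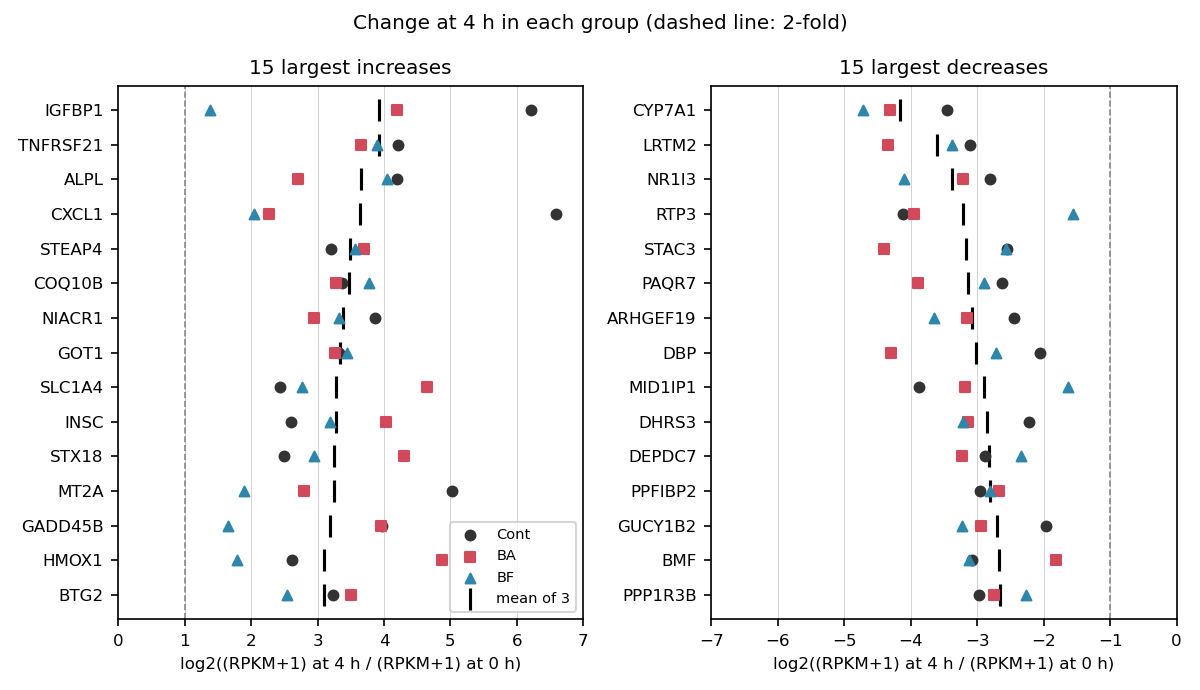
Log2 ratio of (RPKM+1) at 4 h to 0 h (x axis) for the 15 genes with the largest mean increase (left) and decrease (right) among those past 2-fold in all 3 groups. Points are the 3 groups, the black bar is their mean, and the dashed line marks 2-fold. GOT1 and PPFIBP2 moved nearly alike in the 3 groups, while IGFBP1, CXCL1 and MT2A moved most in Cont.

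Immediate early genes encode transcription factors and regulators that are transcribed without new protein synthesis. Of 21 tested, 6 were 2-fold higher in all groups (JUNB, MYC, KLF2, KLF6, BTG2 and MAFF) and none was 2-fold lower. The 6 were 28.6%, against 1.71% of all genes. Limma called 11 higher and 0 lower, against 8.94% and 24.3% of all genes. The list's median log2 ratio was 1.17, 0.79 and 1.16, against the all-gene medians above. BTG2, an antiproliferative regulator, was at 5.89, 18.3 and 7.53 RPKM at 0 h and 63.8, 217 and 48.8 RPKM at 4 h (3.09 ± 0.49, adjusted p = 0.0021), higher at 4 h in 3 of 3 groups and highest in the BA column. MYC, which drives growth and ribosome production, stood at 3.63, 5.94 and 6.76 RPKM at 0 h and 27.4, 19.0 and 17.2 RPKM at 4 h (1.79 ± 0.73, adjusted p = 0.0089). JUNB, an AP-1 subunit, went from 17.9, 27.8 and 15.5 to 86.6, 77.2 and 75.5 RPKM (1.96 ± 0.45, adjusted p = 0.0041). MYC and JUNB at 4 h lay above every 0 h value. MAFF, a small Maf protein, rose from 1.16, 1.31 and 0.71 to 10.2, 14.8 and 2.98 RPKM and least in BF (2.12 ± 0.81, adjusted p = 0.0077). FOS, the partner of JUN, was at 0.42, 0.67 and 0.45 RPKM at 0 h and 3.60, 4.70 and 1.18 RPKM at 4 h, which passed the limma threshold (1.35 ± 0.66, adjusted p = 0.014) but not 2-fold in BF. JUN itself was at 30.1, 25.5 and 7.70 and then 27.5, 34.7 and 14.8 RPKM (0.39 ± 0.49, adjusted p = 0.19), lower in Cont and higher in BA and BF. EGR1 was already at 15.98 RPKM in BA at 0 h, against 2.73 in Cont and 3.12 in BF, and at 21.2, 13.7 and 21.0 RPKM at 4 h (1.59 ± 1.56, adjusted p = 0.067).

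The promoter of BTG2 is shown since it carries, in capitals, the CRE core TGACGT that the cAMP-responsive factors recognise. Both strands of a single site, TGACGTCA, match it, at -201 and -199 from the transcription start (first base of the match). A metal response element core lies at -134. Sequences here run 5′ to 3′ on the gene's strand from 250 bases before to 50 bases after the start annotated by RefSeq, and capitals mark every match to the 8 motifs defined further on.
BTG2 promoter (chr13:48087641-48087940, minus strand, GRCr8): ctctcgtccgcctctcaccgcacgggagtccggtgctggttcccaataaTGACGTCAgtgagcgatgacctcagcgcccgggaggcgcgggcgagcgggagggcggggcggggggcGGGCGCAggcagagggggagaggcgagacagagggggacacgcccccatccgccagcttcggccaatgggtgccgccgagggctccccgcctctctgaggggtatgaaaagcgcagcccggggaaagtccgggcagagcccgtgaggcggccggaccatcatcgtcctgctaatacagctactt

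Genes of IL-6 and STAT3 signalling held a few of the higher genes. STAT3, SOCS3 and BCL3 were 2-fold higher among 19 tested (15.8%, against 1.71% of all genes), and none was 2-fold lower. Limma called 5 higher, against 8.94% of all genes, and 5 lower, a share near the 24.3% of all genes called lower. SOCS3, the feedback inhibitor that STAT3 induces, was at 11.3, 17.4 and 12.2 RPKM at 0 h and 65.1, 85.1 and 53.7 RPKM at 4 h (2.23 ± 0.19, adjusted p = 0.0021), with near equal log2 ratios of 2.42, 2.23 and 2.05. STAT3 was at 33.5, 91.9 and 79.8 RPKM at 0 h and 198, 219.8 and 192 RPKM at 4 h (1.68 ± 0.74, adjusted p = 0.0099). Its 0 h level in Cont lay below those of BA and BF, and the 3 groups were close together at 4 h. BCL3, an I kappa B family coactivator, also started lowest in Cont, with 6.21, 19.9 and 14.0 RPKM at 0 h and 52.6, 53.7 and 30.2 RPKM at 4 h (1.78 ± 0.98, adjusted p = 0.016). The receptor subunit OSMR was at 0.88, 12.2 and 4.08 RPKM at 0 h and 7.15, 23.8 and 14.5 RPKM at 4 h (1.55 ± 0.60, adjusted p = 0.0091), past 2-fold in Cont and BF only, with an adjusted p of 0.051 without the BF pair, and JAK2 passed limma (0.86 ± 0.46, adjusted p = 0.025). On the lower side were the receptor LIFR (-0.68 ± 0.35, adjusted p = 0.033), the kinase JAK1 (-0.59 ± 0.21, adjusted p = 0.026) and the STAT inhibitor PIAS3 (-1.08 ± 0.22, adjusted p = 0.007), while IL6ST, the shared receptor gp130, was at 75.1, 69.7 and 71.0 and then 84.0, 60.4 and 52.2 RPKM (-0.16 ± 0.30, adjusted p = 0.45).

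STEAP4, a metalloreductase of the iron and copper economy that inflammation induces, was at 25.4, 57.1 and 33.7 RPKM at 0 h and 243, 757 and 408 RPKM at 4 h (3.49 ± 0.25, adjusted p = 0.00086), at least 9.26-fold higher in each group. HAMP encodes hepcidin, the hormone that blocks iron export and answers to IL-6, and was at 1066, 806 and 726 RPKM at 0 h and 4782, 3737 and 2495 RPKM at 4 h (2.05 ± 0.24, adjusted p = 0.0021). SLC40A1, the iron exporter that hepcidin degrades, was among the lower genes, from 58.0, 52.4 and 61.3 to 24.7, 21.0 and 20.9 RPKM (-1.33 ± 0.16, adjusted p = 0.0042), and so was HFE2, hemojuvelin, a co-receptor upstream of hepcidin, from 42.6, 59.0 and 53.0 to 6.97, 4.25 and 14.4 RPKM (-2.59 ± 0.86, adjusted p = 0.0055). SLC40A1 and HFE2 are in none of the gene lists and were named after their values were seen. STEAP3, of the STEAP4 family by name and also outside the lists, was 2.23-, 2.50- and 2.45-fold lower. After rescaling SLC40A1 and STEAP3 were no longer 2-fold lower in all groups. The promoters of STEAP4 and HAMP are shown because each holds a GAS sequence, TTCNNNGAA, the form of site that STAT dimers bind: at -66 in STEAP4, beside a C/EBP match at -37 and a kappa B match at -177, and at -117 in HAMP, where an AP-1 match starts at -107.
STEAP4 promoter (chr4:27054720-27055019, minus strand, GRCr8): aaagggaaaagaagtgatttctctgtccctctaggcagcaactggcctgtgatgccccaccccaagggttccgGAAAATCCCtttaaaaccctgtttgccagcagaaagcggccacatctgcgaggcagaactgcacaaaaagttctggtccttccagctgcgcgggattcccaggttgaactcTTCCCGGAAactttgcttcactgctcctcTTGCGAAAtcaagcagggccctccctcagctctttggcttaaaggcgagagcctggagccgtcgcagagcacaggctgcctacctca
HAMP promoter (chr1:95300222-95300521, minus strand, GRCr8): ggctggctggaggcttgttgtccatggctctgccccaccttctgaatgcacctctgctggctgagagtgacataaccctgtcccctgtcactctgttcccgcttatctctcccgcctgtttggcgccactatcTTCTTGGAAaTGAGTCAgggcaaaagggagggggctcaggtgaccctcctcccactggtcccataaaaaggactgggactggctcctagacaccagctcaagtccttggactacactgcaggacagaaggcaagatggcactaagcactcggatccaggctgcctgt

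HAMP was the only acute phase gene of 21 tested that passed 2-fold in all groups, 4.76% against 1.71% of all genes. Limma called 5 higher and 0 lower, against 8.94% and 24.3% of all genes. Without the BA pair 4 of the 21 passed 2-fold in the other 2 groups, and after rescaling 5 did. The classical acute phase genes already differed at 0 h. A2M, a protease inhibitor, was at 7.61, 1892 and 1772 RPKM at 0 h and 939.8, 4688 and 3486 RPKM at 4 h, so that the Cont ratio of 6.77 met ratios of 1.31 and 0.98 (3.02 ± 3.25, adjusted p = 0.08). LCN2, a siderophore-binding protein, was at 3.03 and then 134 RPKM in Cont, and at 1388 and 808 RPKM in BA and BF before PH (1.89 ± 2.75, adjusted p = 0.16). The fibrinogen chains FGA, FGB and FGG rose by 1.17 ± 0.58, 1.09 ± 0.59 and 1.20 ± 0.53 (adjusted p = 0.015, 0.018 and 0.011), each higher in 3 of 3 groups, FGA and FGG past 2-fold in Cont and BF and FGB in Cont only. The 21 genes summed to 77135 RPKM in Cont at 0 h, against 209645 and 201074 RPKM in BA and BF. Of 9 tested negative acute phase genes none passed 2-fold, and limma called 0 higher and 4 lower, against 8.94% and 24.3% of all genes. Among the 4 was SERPINA6, the corticosteroid-binding globulin, at 607, 312 and 322 RPKM at 0 h and 329, 175 and 172 RPKM at 4 h (-0.87 ± 0.04, adjusted p = 0.0065).

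Among 20 NF-kB, chemokine and cytokine genes, 4 were 2-fold higher and 1 lower, 20% and 5% against 1.71% and 2.73% of all genes. Limma called 4 higher and 4 lower, against 8.94% and 24.3% of all genes, so the lower share was near that of all genes. CXCL1, the neutrophil-attracting chemokine, was at 1.66, 32.6 and 28.2 RPKM at 0 h and 254, 162 and 119.9 RPKM at 4 h (3.64 ± 2.55, adjusted p = 0.026). Its Cont ratio of 6.58 stood far above those of BA and BF, whose 0 h levels were higher, and without the BF pair its adjusted p was 0.058. IL1RN, the IL-1 receptor antagonist, was at 12.7, 33.4 and 37.9 RPKM at 0 h and 151, 416 and 109 RPKM at 4 h (2.86 ± 1.17, adjusted p = 0.0079), and IL1R1, the receptor itself, at 44.8, 59.3 and 54.2 RPKM at 0 h and 259, 213 and 167 RPKM at 4 h (1.98 ± 0.47, adjusted p = 0.0041). TNFRSF12A, the TWEAK receptor, rose from 4.37, 16.1 and 2.47 to 23.6, 58.3 and 21.6 RPKM (2.23 ± 0.45, adjusted p = 0.0036). The decoy receptor IL1R2 was also higher, at 0.08, 1.00 and 0.27 and then 2.20, 3.76 and 2.16 RPKM (1.38 ± 0.17, adjusted p = 0.0041). CXCL12, the chemokine that holds cells in the marrow and sinusoid, fell from 155, 158 and 202 to 60.3, 36.7 and 53.1 RPKM (-1.78 ± 0.38, adjusted p = 0.0041). CCL4 and CXCL10 passed limma on the lower side at low levels (-0.96 ± 0.19, adjusted p = 0.008, and -1.36 ± 0.62, adjusted p = 0.012). The inhibitor NFKBIA was at 17.8, 29.3 and 39.8 and then 35.0, 23.4 and 17.2 RPKM, higher in Cont and lower in BA and BF (-0.18 ± 1.06, adjusted p = 0.74). Over the list the median was 0.12, -0.05 and -0.16, and the median of the members' means over groups changed sign with rescaling, from -0.07 to 0.10.

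Markers of neutrophils and monocytes were higher in sum at 4 h beside these genes. The 10 listed summed to 16.1, 40.3 and 40.5 RPKM at 0 h and 53.8, 74.1 and 55.6 at 4 h, and 3 passed the level filter, of which S100A8 (1.83 ± 1.18, adjusted p = 0.023) and S100A9 (1.59 ± 1.24, adjusted p = 0.037) passed limma and none passed 2-fold in all groups. S100A8 lay just outside, with a BF ratio of 0.99. Their part in the chemokine and receptor changes was not tested. Kupffer cell markers summed to 423 to 495 RPKM at 0 h and 395 to 428 at 4 h, and none of 10 passed 2-fold. Cholangiocyte markers summed to 24.4 to 25.5 RPKM at 0 h and 10.1 to 17.1 RPKM at 4 h, and 1 of 4 tested was 2-fold lower. No other marker of T, NK and B, endothelial, stellate, erythroid, acinar or intestinal cells passed 2-fold in all groups.

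The promoter of CXCL1 is shown for its kappa B site, the only match of the 8 motifs in its window, starting -84 from the start site.
CXCL1 promoter (chr14:17479272-17479571, minus strand, GRCr8): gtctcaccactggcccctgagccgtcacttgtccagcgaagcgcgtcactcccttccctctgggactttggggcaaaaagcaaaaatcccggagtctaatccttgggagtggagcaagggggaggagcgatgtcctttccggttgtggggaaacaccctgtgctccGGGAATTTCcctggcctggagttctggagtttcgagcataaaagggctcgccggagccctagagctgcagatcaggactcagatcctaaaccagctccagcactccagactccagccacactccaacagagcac

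Ribosome biogenesis genes rose as a group. These genes cut, modify and assemble ribosomal RNA in the nucleolus. Of 33 tested, 11 were 2-fold higher in all groups and none lower, limma called 29 higher and 0 lower, and the list's median log2 ratio was 0.82, 0.90 and 1.37. The percentages over all genes were 1.71% for 2-fold and 8.94% for limma. NOL5, the snoRNP core protein NOP58, was at 15.7, 25.1 and 11.8 RPKM at 0 h and 61.8, 63.2 and 54.5 RPKM at 4 h (1.78 ± 0.43, adjusted p = 0.0043). Its partner NOL5A, or NOP56, was at 11.5, 19.1 and 6.29 RPKM at 0 h and 37.5, 41.2 and 36.2 RPKM at 4 h (1.68 ± 0.64, adjusted p = 0.0085). For both genes all 4 h values lay above all 0 h values, and BF started lowest and changed most. WDR43, a part of the small-subunit processome, went from 9.85, 11.2 and 5.91 to 32.9, 33.5 and 23.3 RPKM (1.65 ± 0.16, adjusted p = 0.0033), and the RNA helicase DDX21 from 5.49, 5.24 and 2.72 to 15.4, 17.1 and 13.0 RPKM (1.59 ± 0.29, adjusted p = 0.0043). NOLC1, BOP1, RRP9, GNL3, MYBBP1A, NOLA1 and NIP7 changed by 1.11 to 1.55. The abundant nucleolar proteins NCL and NPM1 rose by 0.99 ± 0.32 and 0.94 ± 0.26 (adjusted p = 0.0098 and 0.0093), higher in 3 of 3 groups, NCL under 2-fold in Cont and NPM1 in Cont and BA. The 4 genes that missed the limma threshold were FBL, NOLA2, IMP4 and GRWD1, at 0.71 ± 0.57, 0.54 ± 0.47, 0.44 ± 0.27 and 0.33 ± 0.31. At 0 h the list summed to 604 and 599.8 RPKM in Cont and BA and 379.7 in BF, and at 4 h to 1118, 1135 and 1031. After rescaling 16 of the 33 passed 2-fold. Outside the list and chosen after their values were seen, the RNA polymerase I subunits TWISTNB (1.28 ± 0.14, adjusted p = 0.0046) and POLR1E (1.22 ± 0.10, adjusted p = 0.0047), the polyamine enzyme SRM (1.41 ± 0.43, adjusted p = 0.0067) and CTPS, which makes CTP (1.62 ± 0.69, adjusted p = 0.01), were 2-fold higher in all groups too.

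GNL3, nucleostemin, was at 50.1, 42.1 and 27.3 RPKM at 0 h and 112, 101 and 81.7 RPKM at 4 h (1.31 ± 0.21, adjusted p = 0.0043). Its promoter is shown for a CRE core starting at -51 and the E-box CACGTG, the sequence MYC and its relatives bind, starting at -25. It does not stand for the group. Of the 11 ribosome biogenesis genes that were 2-fold higher, only NOL5 and NOLC1 also had a CRE core match. Only MYBBP1A also had an E-box match.
GNL3 promoter (chr16:6219733-6220032, minus strand, GRCr8): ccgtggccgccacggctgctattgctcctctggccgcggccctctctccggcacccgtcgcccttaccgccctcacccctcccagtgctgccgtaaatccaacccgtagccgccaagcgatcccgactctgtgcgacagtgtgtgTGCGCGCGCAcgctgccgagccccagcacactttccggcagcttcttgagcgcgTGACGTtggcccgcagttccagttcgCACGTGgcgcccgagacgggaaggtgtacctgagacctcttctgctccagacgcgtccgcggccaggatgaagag

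Genes of the fasting and cAMP response held some of the largest increases. 6 of 22 tested were 2-fold higher (PPARGC1A, TAT, SDS, IGFBP1, CREM and FKBP5), 27.3% against 1.71% of all genes, and none was 2-fold lower. Limma called 7 higher and 5 lower, against 8.94% and 24.3% of all genes. IGFBP1, a secreted binder of insulin-like growth factors that insulin represses, was at 7.62, 63.8 and 155 RPKM at 0 h and 637, 1182 and 406 RPKM at 4 h, with ratios of 6.21, 4.19 and 1.39 (3.93 ± 2.42, adjusted p = 0.018). All 4 h values exceeded all 0 h values, yet the 0 h levels spread from Cont up to BF and the change was smallest where the start was highest. CREM, a cAMP-responsive factor, was at 103, 51.8 and 39.6 RPKM at 0 h and 275, 322 and 239 RPKM at 4 h (2.20 ± 0.68, adjusted p = 0.0052). PPARGC1A, the coactivator PGC-1 alpha, went from 0.87, 0.74 and 1.42 to 4.35, 5.31 and 10.4 RPKM (1.87 ± 0.36, adjusted p = 0.0039). TAT, tyrosine aminotransferase, a glucocorticoid target, went from 650.3, 728 and 873 to 3354, 2291 and 2003 RPKM (1.74 ± 0.59, adjusted p = 0.0064), and FKBP5, another, from 10.7, 14.9 and 11.3 to 82.1, 42.8 and 27.9 RPKM (1.84 ± 0.86, adjusted p = 0.011). Other genes of these programs did not follow. PCK1, the gluconeogenic enzyme, stood at 1335, 807 and 1462 and then 1274, 1176 and 1675 RPKM (0.22 ± 0.31, adjusted p = 0.28), G6PC at 84.4, 114 and 254 and then 92.5, 29.4 and 224 RPKM (-0.66 ± 1.10, adjusted p = 0.23), and TSC22D3, a glucocorticoid target, passed limma on the lower side (-1.27 ± 0.81, adjusted p = 0.025).

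Amino acid enzymes were higher more often than lower. Of 30 urea cycle and amino acid breakdown genes, ASL, SDS, GOT1 and AASS were 2-fold higher and CTH 2-fold lower. These were 13.3% and 3.33%, against 1.71% and 2.73% of all genes, so the lower share was near that of all genes. Limma called 10 higher and 3 lower, against 8.94% and 24.3% of all genes. GOT1, cytosolic aspartate aminotransferase, was at 96.0, 78.9 and 104 RPKM at 0 h and 966, 769 and 1139 RPKM at 4 h, a 10.1-fold mean change (3.34 ± 0.09, adjusted p = 0.00086), with ratios of 3.32, 3.27 and 3.44. AASS, the entry enzyme of lysine breakdown, was at 117, 87.1 and 115 RPKM at 0 h and 466, 767 and 796 RPKM at 4 h (2.63 ± 0.58, adjusted p = 0.0035). SDS, serine dehydratase, was at 184, 8.85 and 57.9 RPKM at 0 h and 455, 261 and 248 RPKM at 4 h (2.71 ± 1.80, adjusted p = 0.023). SDS was at 6.60, 2.10 and 1.68 RPKM at 12 h, the only gene among the 145 to be 2-fold below its 0 h value in all groups then, and without the BF pair its adjusted p at 4 h was 0.073. The urea cycle enzyme ASL went from 198, 175 and 247 to 455, 464 and 579 RPKM (1.27 ± 0.11, adjusted p = 0.0038). CTH, which makes cysteine from cystathionine, went from 1029, 379.8 and 756 to 392, 75.6 and 199.8 RPKM (-1.87 ± 0.46, adjusted p = 0.0043). The amino acid transporters SLC1A4 and SLC38A2 were 2-fold higher as well, at 2.63, 3.09 and 2.96 RPKM at 0 h and 18.5, 102 and 25.9 RPKM at 4 h (3.28 ± 1.20, adjusted p = 0.0064) for the former and 36.5, 27.6 and 37.1 and then 195, 235 and 154 RPKM (2.49 ± 0.52, adjusted p = 0.0033) for the latter.

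**Figure D2:**
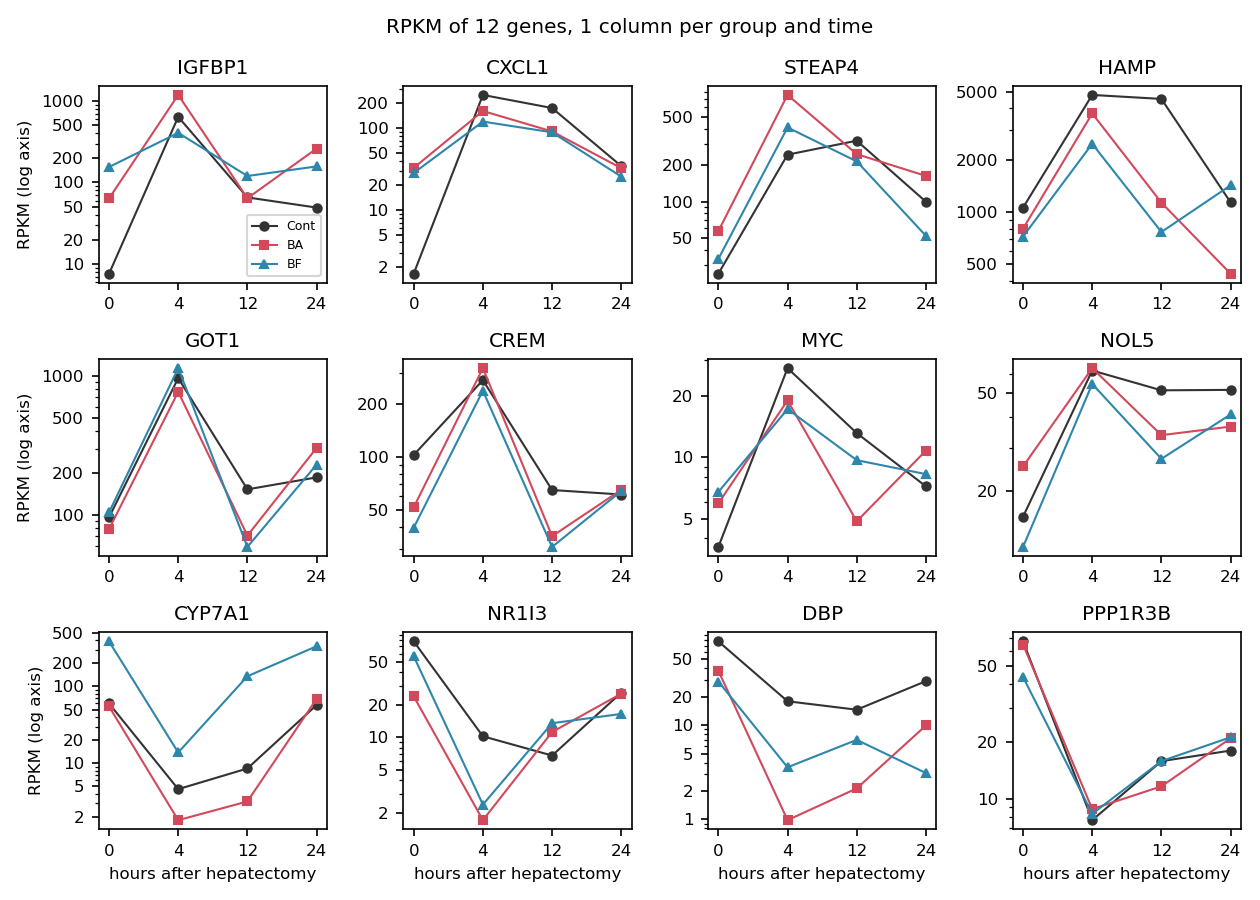
RPKM (log axis) of 12 genes at 0, 4, 12 and 24 h after PH, with 1 value per group and time and a line for each group. All 8 genes in the upper and middle rows peaked at 4 h in BA and BF, STEAP4 was highest at 12 h in Cont, and the 4 genes of the lowest row were below their 0 h level at 4 h in every group.

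Metal and oxidant genes included members in both directions. HMOX1, MT1A, MT2A and SOD2 were 2-fold higher and GCLC, GCLM and OSGIN1 2-fold lower among 22 tested. These were 18.2% and 13.6%, against 1.71% and 2.73% of all genes. Limma called 5 higher and 8 lower, against 8.94% and 24.3% of all genes. MT2A, a metallothionein that binds zinc and copper, was at 38.0, 238 and 314 RPKM at 0 h and 1271, 1668 and 1171 RPKM at 4 h (3.24 ± 1.61, adjusted p = 0.011), and MT1A at 59.3, 233 and 350.1 RPKM at 0 h and 885, 1272 and 843 RPKM at 4 h (2.53 ± 1.31, adjusted p = 0.012). The 2 genes are near copies, and with short reads their counts may be shared. Both started lowest in Cont, and their 4 h values lay within 1171 to 1668 and 843 to 1272 RPKM. HMOX1, heme oxygenase, was at 44.6, 39.5 and 44.8 RPKM at 0 h and 279, 1182 and 158 RPKM at 4 h (3.09 ± 1.59, adjusted p = 0.012), highest in the BA column. SOD2, the mitochondrial superoxide dismutase, went from 79.0, 104 and 66.9 to 236, 445 and 172 RPKM (1.67 ± 0.38, adjusted p = 0.0043). The zinc importer SLC39A14 passed limma on the higher side (1.34 ± 0.37, adjusted p = 0.0063). HMOX1 and the lower members are known targets of NRF2. GCLC and GCLM are the subunits of the enzyme that starts glutathione synthesis and were at 81.6, 42.7 and 33.6 RPKM at 0 h and 28.8, 12.8 and 12.3 RPKM at 4 h (-1.504 ± 0.14, adjusted p = 0.0035) and 150.1, 64.3 and 61.3 RPKM at 0 h and 46.1, 15.99 and 16.5 RPKM at 4 h (-1.82 ± 0.13, adjusted p = 0.0025), while OSGIN1 was at 128, 65.6 and 42.0 RPKM at 0 h and 15.1, 12.3 and 9.18 RPKM at 4 h (-2.47 ± 0.48, adjusted p = 0.0032). Other NRF2 targets, TXNRD1 (0.10 ± 0.09, adjusted p = 0.58) and NQO1 (-0.24 ± 0.89, adjusted p = 0.59), did not pass the test. The promoter of MT2A is shown for its run of 4 metal response element cores, starting at -220, -165, -111 and -55. The run lies between an AP-1 match at -237 and a TATA box at -31, with an E-box at -202 after the first core.
MT2A promoter (chr19:10838659-10838958, minus strand, GRCr8): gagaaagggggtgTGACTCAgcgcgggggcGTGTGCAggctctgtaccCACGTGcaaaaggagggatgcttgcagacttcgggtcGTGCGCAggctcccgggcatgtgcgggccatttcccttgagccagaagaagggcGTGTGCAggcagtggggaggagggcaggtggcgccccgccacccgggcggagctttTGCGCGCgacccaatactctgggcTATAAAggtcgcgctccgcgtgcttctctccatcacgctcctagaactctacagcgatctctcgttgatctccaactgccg

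Growth factor and early cell cycle lists held members in both directions. Among 25 growth factors and receptors, IGFBP1 was 2-fold higher and PDGFC, INHBA and IGFALS were 2-fold lower. These were 4% and 12%, against 1.71% and 2.73% of all genes. Limma called 2 higher and 8 lower, shares near the 8.94% and 24.3% of all genes. After rescaling PDGFC no longer passed 2-fold. INHBA, a subunit of activin A, which restrains hepatocyte growth, went from 8.37, 6.25 and 4.86 to 0.58, 0.16 and 0.30 RPKM (-2.46 ± 0.25, adjusted p = 0.0021). IGFALS, which keeps IGF in the circulation, went from 226, 155 and 138 to 73.6, 35.7 and 64.3 RPKM (-1.59 ± 0.50, adjusted p = 0.0064). HGF, the hepatocyte mitogen, was at 7.40, 10.2 and 7.90 RPKM at 0 h and 14.4, 18.1 and 10.1 RPKM at 4 h (0.65 ± 0.29, adjusted p = 0.03), and its receptor MET at 19.2, 22.1 and 23.7 and then 21.2, 15.6 and 12.0 RPKM (-0.42 ± 0.53, adjusted p = 0.18). The call for HGF was lost without the Cont pair (adjusted p = 0.15) and without the BA pair (0.084). Of 22 early cell cycle and growth arrest genes, GADD45B and CDKN1A were 2-fold higher and CCNG2 and PHLDA3 2-fold lower. That was 9.09% each way, against 1.71% and 2.73% of all genes. Without the BF pair the lower count was 5, and after rescaling it was 1, without CCNG2. GADD45B, a stress sensor, was at 1.93, 4.26 and 5.03 RPKM at 0 h and 44.7, 80.3 and 17.9 RPKM at 4 h (3.19 ± 1.33, adjusted p = 0.0082), and CDKN1A, the inhibitor p21, at 9.24, 7.98 and 7.41 RPKM at 0 h and 67.2, 70.9 and 24.0 RPKM at 4 h (2.44 ± 0.76, adjusted p = 0.0052). CCND1, cyclin D1, was at 24.6, 14.3 and 4.03 RPKM at 0 h and 9.33, 0.83 and 3.58 RPKM at 4 h (-1.503 ± 1.48, adjusted p = 0.068), lower in 3 of 3 groups with a BF ratio of -0.14. None of 22 DNA replication genes passed 2-fold, and PCNA was at 27.3, 20.9 and 20.3 and then 29.8, 32.9 and 27.5 RPKM (0.39 ± 0.25, adjusted p = 0.093). Among 8 matricellular genes linked to YAP and SRF, 2 were 2-fold higher (25%, against 1.71% of all genes). CTGF, a secreted matrix protein, was at 1.91, 2.41 and 2.36 RPKM at 0 h and 22.9, 18.4 and 7.62 RPKM at 4 h (2.30 ± 0.86, adjusted p = 0.0073), with every 4 h value above every 0 h value.

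On the lower side, CYP7A1 changed most. It encodes the enzyme that controls the rate of bile acid synthesis and was at 60.0, 54.9 and 387 RPKM at 0 h and 4.59, 1.81 and 13.8 RPKM at 4 h (-4.16 ± 0.65, adjusted p = 0.0021), a 17.9-fold mean decrease. The BF column started several times above the others, and the ratios were -3.45, -4.31 and -4.71. BAAT, which joins bile acids to taurine and glycine, was the other 2-fold lower gene among 18 tested, at 1385, 1386 and 1028 RPKM at 0 h and 518, 490.5 and 232 RPKM at 4 h (-1.69 ± 0.40, adjusted p = 0.0043). CYP7A1 and BAAT were 11.1% of the list, against 2.73% of all genes. Limma called 0 higher and 10 lower, against 8.94% and 24.3% of all genes, among them the uptake carriers SLC10A1 (-0.95 ± 0.34, adjusted p = 0.011) and SLCO1B2 (-0.71 ± 0.18, adjusted p = 0.013). CYP8B1, which sets the cholic acid share, was at 136, 110.2 and 1576 and then 164, 161 and 919 RPKM (0.01 ± 0.70, adjusted p = 0.97), and CYP27A1 of the alternative pathway at 206, 223 and 362 and then 233, 171 and 263 RPKM (-0.22 ± 0.35, adjusted p = 0.33). Both were higher in Cont and lower in BF. The list's median was -0.45, -0.63 and -0.55. NR0B2, the repressor SHP that lowers CYP7A1 transcription, was itself lower, from 42.3, 12.7 and 20.2 to 10.6, 1.85 and 1.45 RPKM (-2.43 ± 0.62, adjusted p = 0.0042), and NR1H4, the bile acid receptor FXR, from 39.7, 47.4 and 52.2 to 20.7, 11.01 and 19.3 RPKM (-1.44 ± 0.55, adjusted p = 0.009).

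Nuclear receptors and transcription factors that keep the hepatocyte program were among the lower genes. Of 26 tested, 5 were 2-fold lower, NR0B2, NR1I3, CEBPA and HHEX among them, against 2.73% of all genes, and ID1 was 2-fold higher. Limma called 2 higher and 11 lower, against 8.94% and 24.3% of all genes. After rescaling 3 passed, HHEX no longer among them, and without the Cont pair 8 were lower. NR1I3, the xenobiotic receptor CAR, was at 77.8, 24.0 and 56.6 RPKM at 0 h and 10.2, 1.70 and 2.37 RPKM at 4 h (-3.37 ± 0.66, adjusted p = 0.0028), with every 4 h value below every 0 h value. CEBPA, which holds hepatocytes in their differentiated state, went from 111, 87.6 and 79.8 to 35.4, 30.4 and 30.8 RPKM (-1.49 ± 0.14, adjusted p = 0.0035), a steady change across the groups. The oxysterol receptor NR1H3 (-1.29 ± 0.48, adjusted p = 0.0089), the thyroid hormone receptor THRB (-1.43 ± 0.55, adjusted p = 0.0093) and RXRG (-1.80 ± 0.79, adjusted p = 0.01) passed limma. HNF4A, the master regulator of the hepatocyte program, was at 174, 218 and 169 and then 163, 118 and 146 RPKM (-0.40 ± 0.43, adjusted p = 0.14), and NR1I2, the receptor PXR, at 89.5, 63.6 and 64.5 and then 118, 50.7 and 97.6 RPKM (0.22 ± 0.48, adjusted p = 0.42). ONECUT1, also called HNF6, passed limma upward (1.54 ± 0.82, adjusted p = 0.016). Without the BF pair the adjusted p was 0.058 for RXRG and 0.073 for ONECUT1. The promoter of NR1I3 holds 1 match among the 8 motifs, an AP-1 site starting at -192, and is shown for comparison with the higher genes.
NR1I3 promoter (chr13:86165170-86165469, plus strand, GRCr8): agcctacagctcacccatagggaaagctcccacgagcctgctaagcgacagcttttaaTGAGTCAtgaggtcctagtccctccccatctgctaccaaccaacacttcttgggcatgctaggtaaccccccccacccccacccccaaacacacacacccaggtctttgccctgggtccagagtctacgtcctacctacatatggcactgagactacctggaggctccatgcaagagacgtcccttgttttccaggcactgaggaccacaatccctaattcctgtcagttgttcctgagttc

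Cytochrome P450 genes of families 1 to 3, which oxidise drugs and steroids, were lower by small amounts where they passed the test, with 1 exception. None of 24 tested passed 2-fold in all groups, while limma called 15 lower and 1 higher, against 24.3% and 8.94% of all genes, with a median of -0.45, -0.60 and -0.67. CYP2A2 went from 420.3, 351 and 476 to 218, 195 and 161 RPKM (-1.12 ± 0.39, adjusted p = 0.009) and CYP2E1 from 2463, 1209 and 2559 to 1833, 726 and 1269 RPKM (-0.72 ± 0.29, adjusted p = 0.017). CYP1A1 and CYP1A2 did not pass (0.02 ± 0.11, adjusted p = 0.92, and 0.06 ± 0.16, adjusted p = 0.71). The 1 higher gene was POR, the reductase that supplies electrons to these enzymes, from 168, 94.1 and 73.1 to 399, 159 and 176 RPKM (1.08 ± 0.29, adjusted p = 0.0075). Members of the 2C and 2D families are near copies, and reads may be shared among them.

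Cholesterol genes fell broadly. HMGCS1 was among 2 genes 2-fold lower of 21 tested (9.52%, against 2.73% of all genes), and LPIN1 was 2-fold higher (4.76%, against 1.71%). Limma called 14 lower and 1 higher, against 24.3% and 8.94% of all genes, and the list's median was -0.67, -0.97 and -0.51. Without either the Cont or the BF pair, 4 were 2-fold lower. HMGCS1, early in the mevalonate pathway, was at 211, 992 and 833 RPKM at 0 h and 58.0, 98.2 and 214 RPKM at 4 h (-2.37 ± 0.83, adjusted p = 0.0061), with Cont well below BA and BF at 0 h. SREBF2, the pathway's transcription factor, went from 15.8, 24.9 and 24.5 to 9.22, 8.45 and 9.90 RPKM (-1.13 ± 0.38, adjusted p = 0.0094). SQLE (0.26 ± 0.38, adjusted p = 0.27) and INSIG1 (0.26 ± 0.43, adjusted p = 0.32) did not pass. LPIN1, a phosphatidate phosphatase and coactivator induced by fasting, was at 47.1, 28.5 and 26.5 RPKM at 0 h and 266, 168 and 55.1 RPKM at 4 h (2.01 ± 0.85, adjusted p = 0.0089). Of 20 glycolysis and lipid synthesis genes, GPAM, the first enzyme of triglyceride synthesis, was 2-fold lower (39.8, 45.2 and 51.3 RPKM at 0 h and 8.34, 13.4 and 8.50 RPKM at 4 h, -2.09 ± 0.39, adjusted p = 0.0035). GPAM was 5% of the list, against 2.73% of all genes. Limma called 2 higher and 7 lower of the 20, against 8.94% and 24.3% of all genes. Without the Cont or the BF pair 3 were 2-fold lower, and without the BA pair 2. ACSL1, which activates fatty acids, was also lower but not after rescaling (-1.39 ± 0.36, adjusted p = 0.0054).

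Among 13 clock genes tested, DBP and CRY2 were 2-fold lower, also after rescaling, against 2.73% of all genes. Limma called 6 lower and 2 higher, against 24.3% and 8.94% of all genes. DBP, an output factor of the clock, was at 77.6, 37.8 and 29.1 RPKM at 0 h and 17.9, 0.98 and 3.57 RPKM at 4 h (-3.02 ± 1.15, adjusted p = 0.0068). CRY2, a repressor of the clock, went from 11.4, 10.8 and 10.3 to 3.73, 1.82 and 3.08 RPKM (-1.64 ± 0.37, adjusted p = 0.0047), and PER2 from 8.32, 8.47 and 3.51 to 1.73, 0.78 and 1.32 RPKM (-1.71 ± 0.73, adjusted p = 0.0096), just under 2-fold in BF. TEF (-1.64 ± 0.83, adjusted p = 0.014) and PER3 (-1.63 ± 0.81, adjusted p = 0.014) passed limma downward, and NFIL3, a repressor of DBP targets (1.66 ± 0.89, adjusted p = 0.015), and ARNTL, the activator BMAL1 (0.78 ± 0.55, adjusted p = 0.045), upward. PER1 and CLOCK did not pass (0.14 ± 0.15, adjusted p = 0.45, and 0.07 ± 0.19, adjusted p = 0.75). Without the Cont or the BF pair, 4 were 2-fold lower. The hour of death is not given, and its part in these changes was not tested.

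**Figure D3:**
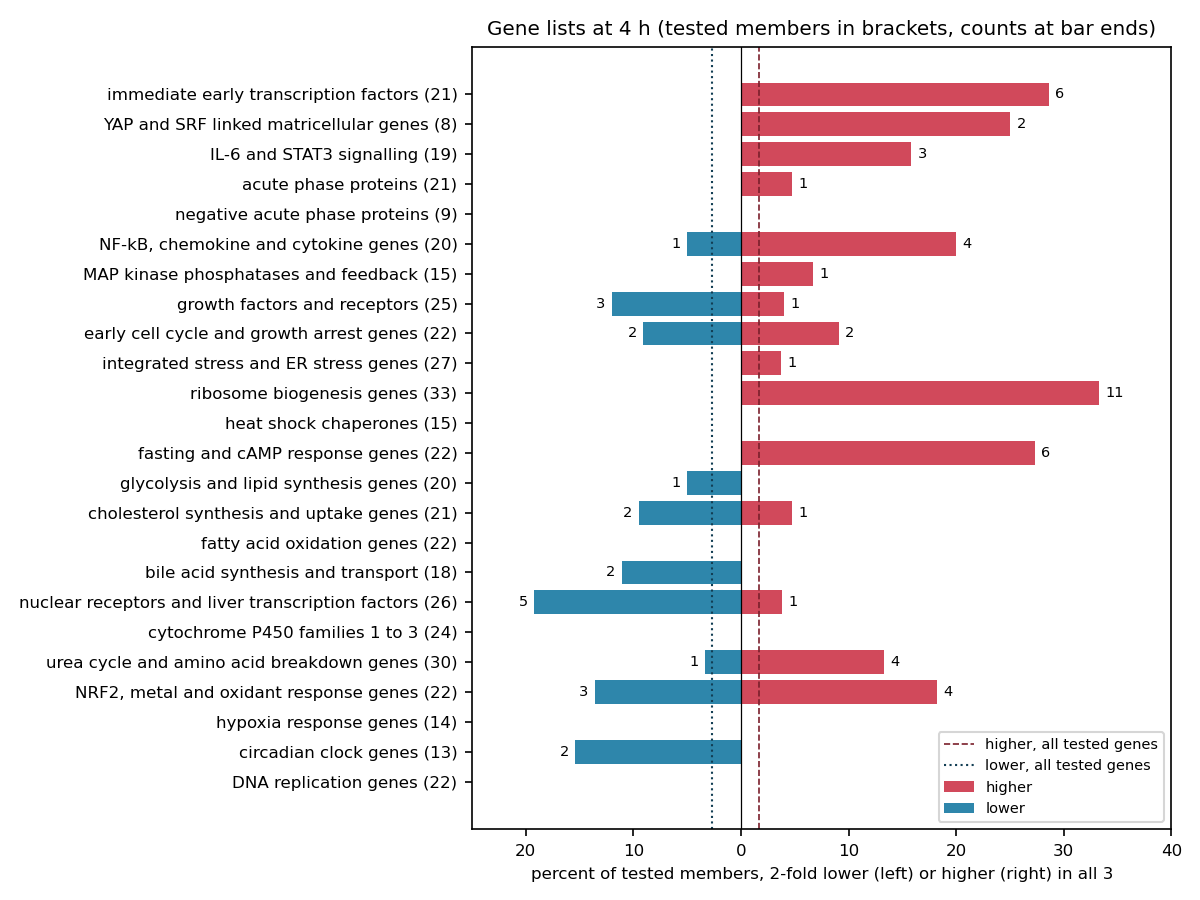
Share of the tested members of each of 24 gene lists that were at least 2-fold higher (right) or lower (left) at 4 h in all 3 groups, with the number of genes at the bar end and the number tested in brackets. The dashed and dotted lines mark the shares over all 8459 genes, 1.71% higher and 2.73% lower. The bars for ribosome biogenesis, immediate early and fasting genes reach furthest right, and those for nuclear receptors and clock genes furthest left.

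Besides the P450 genes, 5 lists held no 2-fold member: negative acute phase proteins, heat shock chaperones, fatty acid oxidation, hypoxia response and DNA replication. Heat shock chaperones had 2 limma calls higher and 2 lower of 15 tested, and the hypoxia list 2 higher and 0 lower of 14. Over all genes the shares were 8.94% and 24.3%. The glycolytic regulator PFKFB3 was at 0.59, 0.72 and 0.98 RPKM at 0 h and 5.65, 5.63 and 0.80 RPKM at 4 h (1.29 ± 1.24, adjusted p = 0.066), higher in Cont and BA only. Of 22 fatty acid oxidation genes limma called 1 higher and 4 lower, both below the all-gene shares of 8.94% and 24.3%. The regulator PPARA was among the lower (-0.88 ± 0.18, adjusted p = 0.0095). Among 27 integrated stress and ER stress genes only SLC38A2 passed 2-fold, and among 15 MAP kinase feedback genes only the phosphatase DUSP8 (0.74, 0.87 and 0.30 RPKM at 0 h and 3.64, 4.97 and 2.85 RPKM at 4 h, 1.55 ± 0.13, adjusted p = 0.0035). SLC38A2 and DUSP8 were 3.7% and 6.67% of their lists, against 1.71% of all genes 2-fold higher. The medians of the heat shock and stress lists changed sign with rescaling, from -0.13 to 0.04 and from -0.05 to 0.16.

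**Figure D4:**
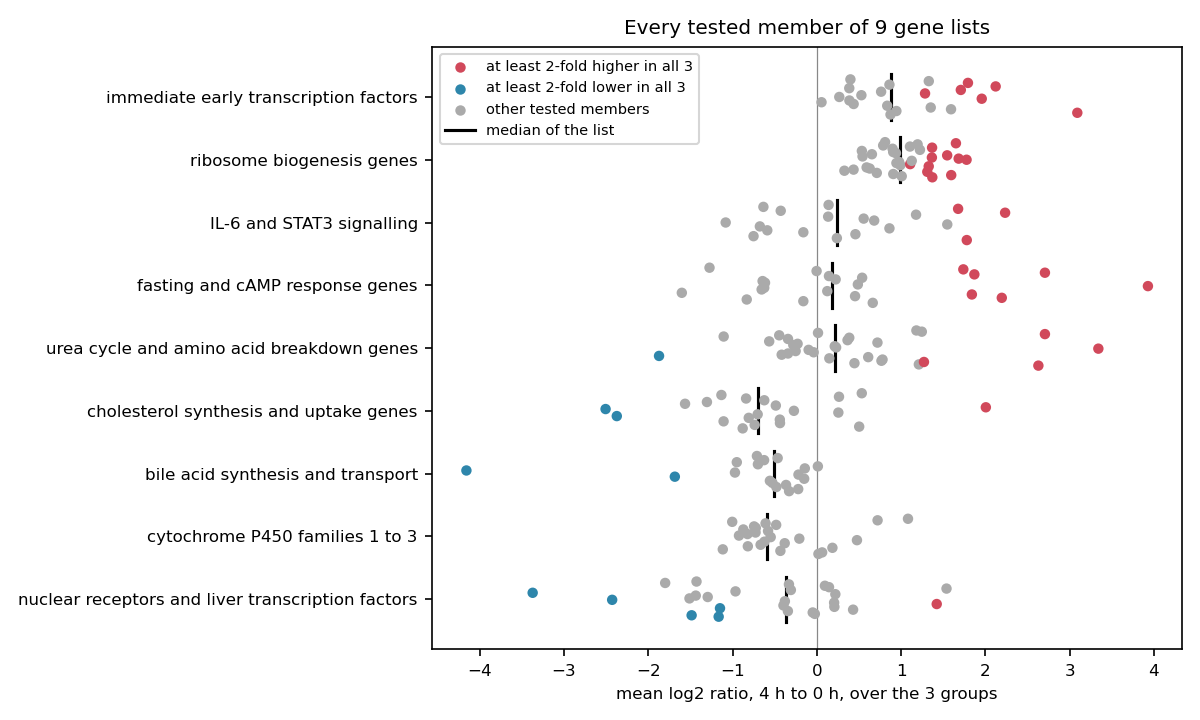
Mean log2 ratio of 4 h to 0 h over the 3 groups (x axis) for each tested member of 9 gene lists, 1 point per gene, with the list's median as a black line. All 33 ribosome biogenesis genes lie above 0, and the cholesterol, bile acid and P450 lists lie mostly below it, with CYP7A1 farthest to the left.

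The lists covered 46 of the 145 higher and 22 of the 231 lower genes, and the rest included many of those with the largest changes. TNFRSF21, death receptor 6, was at 1.05, 7.81 and 2.71 RPKM at 0 h and 37.0, 110.3 and 54.0 RPKM at 4 h (3.92 ± 0.28, adjusted p = 0.00086). ALPL, tissue-nonspecific alkaline phosphatase, was at 3.41, 10.4 and 3.11 RPKM at 0 h and 80.2, 73.2 and 67.1 RPKM at 4 h (3.65 ± 0.83, adjusted p = 0.0032), with the 4 h values close together. COQ10B, which handles coenzyme Q in mitochondria, was at 50.3, 32.7 and 20.5 RPKM at 0 h and 527, 326 and 292 RPKM at 4 h (3.47 ± 0.26, adjusted p = 0.00086). The niacin receptor NIACR1 went from 0.32, 4.43 and 0.42 to 18.2, 41.0 and 13.2 RPKM (3.38 ± 0.46, adjusted p = 0.0021). The syntaxin STX18, of transport between the endoplasmic reticulum and the Golgi, went from 24.2, 21.1 and 15.4 to 141, 432 and 126 RPKM (3.25 ± 0.94, adjusted p = 0.0043) and the polarity protein INSC from 9.65, 7.24 and 5.19 to 63.9, 134 and 55.6 RPKM (3.28 ± 0.72, adjusted p = 0.0032), both highest in the BA column. Others are named here after their values were seen. NAMPT, which recycles nicotinamide to NAD, was at 84.1, 69.9 and 43.3 RPKM at 0 h and 489, 673 and 346 RPKM at 4 h (2.92 ± 0.36, adjusted p = 0.0021), and NNMT, which methylates nicotinamide, at 119.7, 135 and 151 RPKM at 0 h and 544, 734 and 777 RPKM at 4 h (2.32 ± 0.13, adjusted p = 0.0021). AGT, angiotensinogen, had near equal 0 h levels of 642, 653 and 647 RPKM and reached 3628, 6220.5 and 3039 RPKM (2.66 ± 0.53, adjusted p = 0.0029). The citrate carrier SLC13A5 went from 8.54, 53.8 and 57.1 to 223, 184 and 163 RPKM (2.60 ± 1.69, adjusted p = 0.022).

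Among the lower genes outside the lists, LRTM2 was at 23.2, 22.2 and 23.3 RPKM at 0 h and 1.81, 0.14 and 1.33 RPKM at 4 h (-3.61 ± 0.65, adjusted p = 0.0025) and RTP3, a receptor transporter, at 60.8, 34.9 and 36.5 RPKM at 0 h and 2.56, 1.33 and 11.7 RPKM at 4 h (-3.21 ± 1.43, adjusted p = 0.0089), least changed in BF. PAQR7, a membrane progestin receptor, went from 43.1, 30.6 and 39.1 to 6.13, 1.12 and 4.40 RPKM (-3.14 ± 0.67, adjusted p = 0.0032), and STAC3 from 173, 102 and 45.0 to 28.6, 3.85 and 6.75 RPKM (-3.18 ± 1.06, adjusted p = 0.0054). PPP1R3B, which targets a phosphatase to glycogen, went from 67.4, 64.9 and 43.8 to 7.72, 8.83 and 8.34 RPKM (-2.66 ± 0.36, adjusted p = 0.0021). MID1IP1, which promotes fatty acid synthesis by activating acetyl-CoA carboxylase, went from 55.9, 45.0 and 21.3 to 2.86, 4.06 and 6.15 RPKM (-2.90 ± 1.15, adjusted p = 0.0075). DHRS3, a retinaldehyde reductase, went from 84.8, 74.9 and 101 to 17.5, 7.61 and 9.91 RPKM (-2.86 ± 0.56, adjusted p = 0.0029), and BMF, which promotes apoptosis, from 19.5, 8.76 and 15.04 to 1.43, 1.77 and 0.84 RPKM (-2.67 ± 0.74, adjusted p = 0.0043). PPFIBP2, a liprin, was the steadiest of the 15 lower genes with the largest mean change, with ratios of -2.96, -2.67 and -2.80, and ARHGEF19, DEPDC7 and GUCY1B2 of that set changed by -3.08 ± 0.60, -2.82 ± 0.45 and -2.71 ± 0.66. The next 6 genes are single examples, named after their values were seen. AVPR1A, a vasopressin receptor, was at 34.8, 54.0 and 54.6 RPKM at 0 h and 4.48, 5.64 and 11.5 RPKM at 4 h (-2.64 ± 0.45, adjusted p = 0.0028) and ADRA1B, an adrenaline receptor, at 19.7, 24.1 and 27.3 and then 6.47, 5.15 and 6.18 RPKM (-1.83 ± 0.31, adjusted p = 0.0037). CDH1, E-cadherin, was at 34.1, 34.0 and 37.1 RPKM at 0 h and 12.0, 8.17 and 10.8 RPKM at 4 h (-1.69 ± 0.25, adjusted p = 0.0037), and CLDN1, claudin-1, changed by -1.98 ± 0.52, adjusted p = 0.0047. LGR4 and RNF43, which set the response to Wnt ligands, changed by -1.45 ± 0.23, adjusted p = 0.0043, and by -1.61 ± 0.37, adjusted p = 0.0047.

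Promoters from RefSeq (GRCr8) were found by symbol for 122 of the 145 higher, 190 of the 231 lower and 6840 of the 8459 tested genes, each a window of 300 bases. Both strands were searched for AP-1 (TGANTCA), the CRE core (TGACGT), GAS (TTCNNNGAA), C/EBP (TTGCNNAA), the E-box (CACGTG), kappa B (GGGANTTTC), the metal response element core (TGCACNC or TGCGCNC) and the TATA box (TATAAA). The CRE core stood in 18.9% of higher and 3.68% of lower promoters, against 12.1% of all tested and 8.22% of all promoters in the table. The E-box stood in 17.2% of higher and 7.89% of lower, against 9.84% of tested promoters. Each motif was searched for independently, so that matches of different motifs may overlap, and a match describes the sequence only. Higher promoters with a CRE core included BTG2, PPARGC1A, MAFF, NOL5, NOLC1 and GNL3, and those with an E-box included KLF6, GADD45B, SRM, NLE1, MYBBP1A and GNL3. GAS stood in 9.02%, 7.37% and 6.78% of higher, lower and tested promoters, AP-1 in 5.74%, 3.68% and 5.01%, C/EBP in 9.84%, 11.1% and 8.82%, and the metal response core in 40.2%, 37.9% and 36.5%. Kappa B was found in 3 higher promoters (CXCL1, STEAP4 and PTPN2), 2.46% against 1.11% of tested, and a TATA box in 9.84%, 13.2% and 7.03%. Base composition differed beside these shares, with a median of 22, 17 and 21 CG dinucleotides per window in higher, lower and tested promoters, and no test was made of any share.

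The size of the change varied among the groups. The median SD over the 3 ratios was 0.42 for the higher and 0.35 for the lower genes, against 0.24 for all tested. In 44 higher and 92 lower genes the 3 ratios lay within 0.5 of each other, 30.3% and 39.8% against 54.3% of all tested genes, among them STEAP4, COQ10B, GOT1, SOCS3 and HAMP, and INHBA and PPFIBP2. In 15 higher and 8 lower genes they lay over 2 apart, 10.3% and 3.46% against 1.76% of all, led by IGFBP1, CXCL1 and SDS and by AOX3, G0S2 and RTP3. Of the higher genes, 43 changed most in Cont, 61 in BA and 41 in BF, and of the lower genes 28, 134 and 69. BA also led over all tested genes on the lower side. There 5.19%, 13.2% and 6.94% were 2-fold lower, and 4.01%, 4.61% and 5.13% 2-fold higher, in Cont, BA and BF. The part of the BA column at 4 h, which stood apart in its sum, was not tested. The 0 h level differed for some. In 9 higher genes (6.21%) the BA and BF columns at 0 h were both at least 2-fold above Cont, against 1.11% of all tested genes. These were BCL3, MARVELD1, SLC13A5, STAT3, CXCL1, IGFBP1, MT1A, MT2A and IL1RN, and SDS was the reverse. In 11 lower genes (4.76%), DBP, NR0B2 and GCLM among them, both were at least 2-fold below Cont at 0 h, against 1.34% of all genes. The 0 h columns enter the ratios by which members were chosen, so these shares are descriptions. At 4 h the 3 groups were no closer to each other, with a median log2 spread of 0.69 in the higher genes, against 0.66 at 0 h. The spread of the lower genes was wider at 4 h, at 0.72 against 0.46. Over all tested genes it was 0.41 against 0.34.

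The median change of both sets was smaller at 24 h than at 4 h in every group. Within 2-fold of 0 h in all groups at 24 h were 73 of the 145 higher and 162 of the 231 lower genes. Members were chosen by their 4 h ratios, which by itself favours smaller ratios at other times. At 12 h, 13 of the 145 higher and 62 of the 231 lower genes were still 2-fold changed in all groups, and at 24 h 7 and 13. The 0 h columns are shared by these ratios and by those at 4 h, so the values are set side by side only. Over all tested genes, 35 (0.414%) were 2-fold higher and 228 (2.70%) lower at 12 h, and 215 (2.54%) and 56 (0.662%) at 24 h. The median log2 ratio of the higher genes went from 1.74, 1.75 and 1.68 at 4 h to 1.19, 0.32 and 0.67 at 12 h and 0.78, 0.38 and 0.68 at 24 h. At 12 h the Cont median was the highest of the 3, with 84 of 145 genes still 2-fold higher there, against 24 in BA and 44 in BF. By 24 h these counts were 49, 20 and 38. For the lower genes the medians were -1.40, -0.93 and -0.83 at 12 h and -0.48, -0.25 and -0.36 at 24 h. The difference between groups was not tested, as each has 1 column per time.

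Higher genes that were still so at 12 h in all groups included SOCS3, CXCL1, IL1R1, IL1R2, SOD2, LEAP2, STEAP4 and SLC1A4. TNFRSF21, FABP4 and OGFRL1 stayed 2-fold higher at 4, 12 and 24 h. FABP4, a lipid chaperone of fat cells and macrophages, was at 2.46, 9.13 and 3.52 RPKM at 0 h and 21.2, 77.3 and 8.26 RPKM at 4 h and 14.2, 45.1 and 12.7 RPKM at 24 h (2.22 ± 1.04, adjusted p = 0.01 at 4 h). CDKN1A was at 27.8, 14.2 and 7.93 RPKM at 12 h and 86.8, 78.9 and 30.4 RPKM at 24 h, with its lowest values after PH at 12 h. 12 genes stayed lower at all 3 times, among them DBP, LRTM2, STAC3, PPP1R3B, BMF, HES6, GLYAT and HSD17B2. STAC3 was at 3.63, 0.31 and 0.03 RPKM at 12 h and 1.06, 0.12 and 0.62 RPKM at 24 h, below its 4 h level in every group. HSD17B2, which inactivates sex steroids, was at 809.9, 245 and 300.1 RPKM at 0 h and 314, 18.0 and 45.0 RPKM at 4 h, then 6.83, 4.14 and 19.2 RPKM at 12 h and 169.6, 109.7 and 51.6 RPKM at 24 h (-2.59 ± 1.17, adjusted p = 0.0093 at 4 h). CYP7A1 was at 8.53, 3.17 and 136 RPKM at 12 h and 57.3, 68.8 and 334 RPKM at 24 h, so that only the 24 h values were near those at 0 h.

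**Figure D5:**
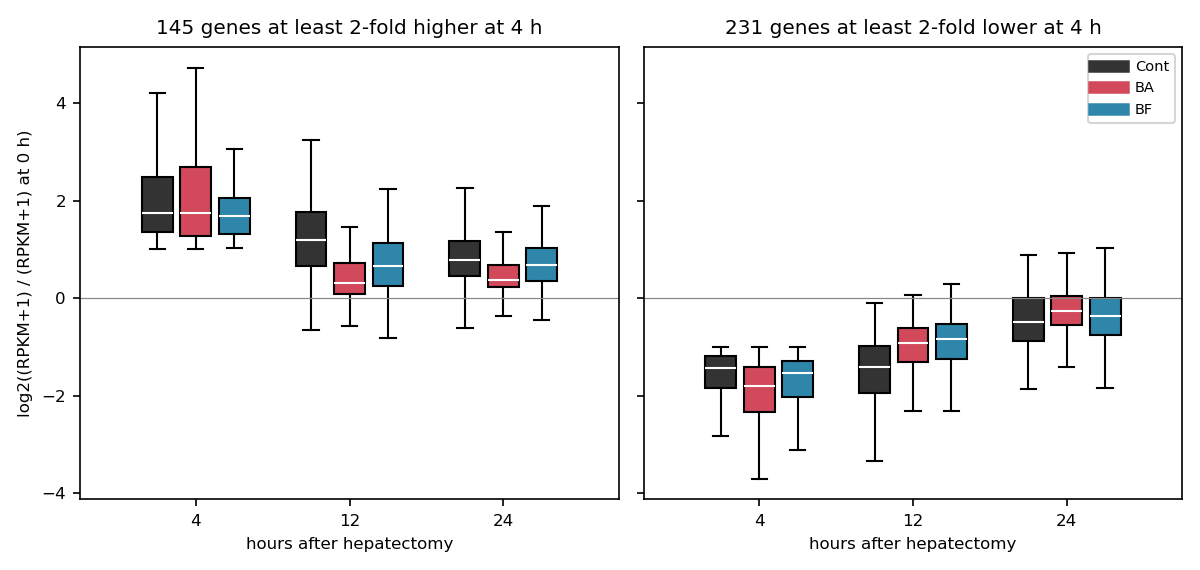
Log2 ratio of (RPKM+1) to the 0 h column of the same group (y axis) at 4, 12 and 24 h after PH for the 145 higher genes (left) and the 231 lower genes (right). Boxes span the quartiles over genes with the median in white, and whiskers reach the last gene within 1.5 times the box. All medians at 24 h lie nearer to 0 than at 4 h, and the Cont median of the lower genes is about the same at 12 h as at 4 h.

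At the 2-fold threshold, RNF217, AKAP2 and NLE1 were the last higher genes inside, with a smallest ratio of 1.00, and S100A8, RG9MTD1 and RGD1311458 the first outside, with smallest ratios of 0.99, 0.99 and 0.99. On the lower side FGF1 and LPHN1 were inside, at -1.31 ± 0.27 and -1.12 ± 0.10, and DNAJC28, LIPA and ACACB outside, at -1.62 ± 0.56, -1.13 ± 0.13 and -1.40 ± 0.44.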

How the data were processed

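RNA was extracted from whole liver with Trizol, and libraries were made from 1 µg with a TruSeq kit. The authors deposited RPKM values, per gene and column, each a combination of a run on 1 rat and a run on pooled RNA of 3 rats. The submitters' processing notes name CASAVA and Bowtie 0.12.2 and the builds mm8 and rn4, without the role of each. The study's methods say that the data of the 4 animals were averaged by their RPKM. The weight of the pooled run in that average, and the counts behind the RPKM, are not given in the sources used here. Of 14692 listed genes, 8459 had a 12-column mean of at least 1 RPKM. 18 symbols in the table have the form of a date, 13 of them among the tested genes, and were kept as deposited. Log2((RPKM+1)/(RPKM+1)) of 4 h to 0 h was computed within each prefix, and a pseudocount of 1 RPKM understates the change of low genes.

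The change was fitted with limma 3.58.1 in R 4.3.3 on log2(RPKM+1) over the 6 columns, with the prefix as block, a trend in the prior variance and Benjamini-Hochberg adjustment over all 8459 genes at 0.05. At an unadjusted p under 0.05, 3971 genes passed. The 24 pathway lists hold 580 genes, of which 482 were tested. Together with the 10 lists of cell type markers they hold 659 genes, 31 of them found under an older symbol. The genes described are those past 2-fold in all groups. Named singly were the 15 largest changes each way, up to 4 members with the largest change in each list, 12 genes fixed by name, the 3 genes on either side of the threshold and 10 genes with opposite directions. Further list members were chosen to show the rest of a list after their values were seen. The members and lists were chosen with earlier results of these data known. Alternatives were another pseudocount, rescaling, each pair left out, other filters and thresholds, and other forms of the fit. Promoters came from RefSeq (GRCr8), a later build than those of the table, matched by symbol. Results for some genes are not reported here.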

Additional observations from a re-analysis of the deposited data

Results flagged for a closer look

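20 genes (0.236% of those tested) were at least 2-fold higher in 1 group and at least 2-fold lower in another, and the 10 with the widest gap are given. They caught attention because the groups went opposite ways. Each group has 1 column per time, so the difference between groups was not tested. RPL30, a ribosomal protein gene, had log2 ratios of -3.38, 0.29 and 4.18 in Cont, BA and BF, a gap of 7.56. RGS16, an inhibitor of G protein signalling, had ratios of 3.20, -1.15 and 0.40 (gap 4.35). PDK4, a kinase that restrains pyruvate oxidation, had ratios of 2.10, -1.69 and 1.21 (gap 3.79). ELOVL6, a fatty acid elongase, had ratios of 2.22, -1.51 and -0.31 (gap 3.73). CYP2C12, a steroid-metabolising P450 known as female-predominant in rats, had ratios of 0.22, -2.51 and 1.15 (gap 3.66). UBD, a ubiquitin-like protein that cytokines induce, had ratios of -1.38, 1.41 and 2.25 (gap 3.63). CYR61, a matricellular protein, had ratios of 0.59, -1.40 and 2.19 (gap 3.59). UPP2, uridine phosphorylase, had ratios of 1.498, 1.52 and -1.83 (gap 3.35). ZFP354A, a zinc finger protein, had ratios of 1.80, -0.31 and -1.26 (gap 3.06), and RGD1563706 had -1.92, 0.28 and 1.09 (gap 3.01).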

How the results depend on the processing

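A pseudocount of 0.1 RPKM gave 377 genes 2-fold lower in all groups, in place of 231. Rescaling gave 143 lower genes, and 1289 higher and 1299 lower limma calls. Leaving out 1 pair at a time gave 263 to 410 lower genes, 404 to 618 higher and 895 to 1524 lower limma calls, and 23 to 38 lower genes within the lists, in place of 22. Thresholds of 1.5-fold and 4-fold gave 370 and 21 higher and 834 and 24 lower genes. With no filter on low values limma called 285 higher and 864 lower. The other counts stayed within 1.5 times of those reported. The columns of a group share its prefix, which names the surgical group and not an animal, and without the replicate block limma called 570 higher and 1457 lower genes. Of 846 values for the 141 named genes under 6 alternatives each, 756 kept direction and side of the threshold, 53 lost the call, 24 gained it and 13 changed sign. The signs that turned were those of genes for which the groups disagreed. Leaving out each pair in turn, the mean log2 ratio ran from -0.24 to 0.80 for ALB (lowest without BA), from -1.55 to 2.23 for RPL30 (lowest without BF), from -0.37 to 1.80 for RGS16, -0.24 to 1.65 for PDK4, -0.91 to 0.95 for ELOVL6 and -0.79 to 0.74 for ZFP354A (these lowest without Cont), from -1.15 to 0.68 for CYP2C12 (highest without BA), from -0.41 to 1.39 for CYR61 (lowest without BF), from -0.82 to 0.68 for RGD1563706 (highest without Cont), and from -0.16 to 1.51 for UPP2 (-0.16 without BA and -0.15 without Cont). With the smaller pseudocount ELOVL6 was at -0.017 and RGD1563706 at 0.10. Of 120 list medians, 24 moved by more than the spread between groups. Fewer pairs leave the limma fit fewer residual degrees of freedom. Apart from this and the 2-fold rule, the cause was not tested. Depth is unknown, so counting error of low genes is not covered.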
